A study of Arabidopsis thaliana with 8 samples.

Results

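Of 692 probes that the platform annotation ties to a single gene, 26 were among the brightest 15% of all probes on every one of 8 arrays, and these 26 genes are described here. The table also holds 870 probes annotated with several genes and 1877 with no gene given here. The genes were chosen by their brightness: a gene entered the set when its deposited intensity reached that level on each *atpd* array and on each WT array. The level needed was 1.22 to 1.26 on the *atpd* arrays and 0.677 to 0.791 on the WT arrays, on the arbitrary linear scale of the table. 32 single-gene probes met it, and 6 of them were left out by name from a list of 13 mostly photosynthetic genes. Because the intensities chose the genes, their levels and their order are given as a description with no test. The difference between the genotypes was not part of the choice, although a gene that is bright on all 8 arrays can move only so far.

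Seen from each genotype, the 32 were 42.7% of the 75 single-gene probes that were bright on all 4 *atpd* arrays and 55.2% of the 58 that were bright on all 4 WT arrays. A further 29 were bright on all 4 *atpd* arrays and on no WT array, and 22 on all 4 WT arrays and on no *atpd* array. No such values over all probes are given here, so these shares and counts have no background to be read against.

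The *atpd* arrays carried total RNA of an *Arabidopsis thaliana* mutant without the delta subunit of ATP synthase. The WT arrays carried total RNA of the wild type. Both are of the ecotype Wassilevskija and grew on MS (Murashige and Skoog) medium, a standard mineral medium for plant culture. There were 4 arrays of each genotype, numbered 1 to 4 in the labels. The tissue, the plant age, the time of sampling and the mutant allele are not stated in the labels, and they leave unsaid if each array had its own plants. No single-gene probe was named for ATPD, so the genotype could not be checked on the mutated gene.

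ATP synthase of the chloroplast makes ATP from the proton gradient that photosynthetic electron transport builds across the thylakoid membrane, and its delta subunit holds the catalytic head to the membrane part. Most proteins of the chloroplast are encoded in the nucleus, and in green tissue the transcripts of antenna proteins, photosystem subunits and carbon-fixing enzymes are among the most abundant of the cell. The brightness of a probe depends on the probe as well as on its transcript. A place in the order below is therefore a place among probe signals, and it can be compared for the same gene between genotypes but not read as the abundance of a gene against another gene. In a whole-tissue sample, fewer cells that express a gene and less of its RNA per cell cannot be told apart.

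The functions that could be named were few. The reference gives a name beyond the locus tag to 4 of the 26 genes: NdhS, a subunit of the chloroplast NADH dehydrogenase-like complex, CCL, a CCR-like gene, PRA1.B6, a prenylated RAB acceptor, and CYN, the cyanase. Of 17 pathway lists with 319 loci, written from textbook knowledge, only the list of plastid ribosomal proteins held a member, AT5G65220. The lists were thinly covered by single-gene probes: 22 of their loci had one and 20 were tested, of which 4 were higher, 8 lower and 8 not past the threshold, and 9 of these probes belong to the genes left out by name. The remaining 21 genes carry only their locus tag in the reference, so no role is given for them. A statement that one class of function stays bright in both genotypes cannot be drawn from a set in which 22 of 26 genes have no name.

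The 26 genes spanned a wide range of signal. Together they held 6.08% to 6.24% of the summed intensity of an *atpd* array and 5.29% to 7.04% of a WT array. In *atpd*, AT4G31530 and AT2G27290 alone made up 52.4% to 55.9% of the signal of the 26, against 9.19% to 19.9% in WT. The median of the 26 was 2.54 to 2.79 on the *atpd* arrays and 2.36 to 3.55 on the WT arrays, and 7 of the 26 were among the 100 brightest probes of every array.

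**Figure D1:**
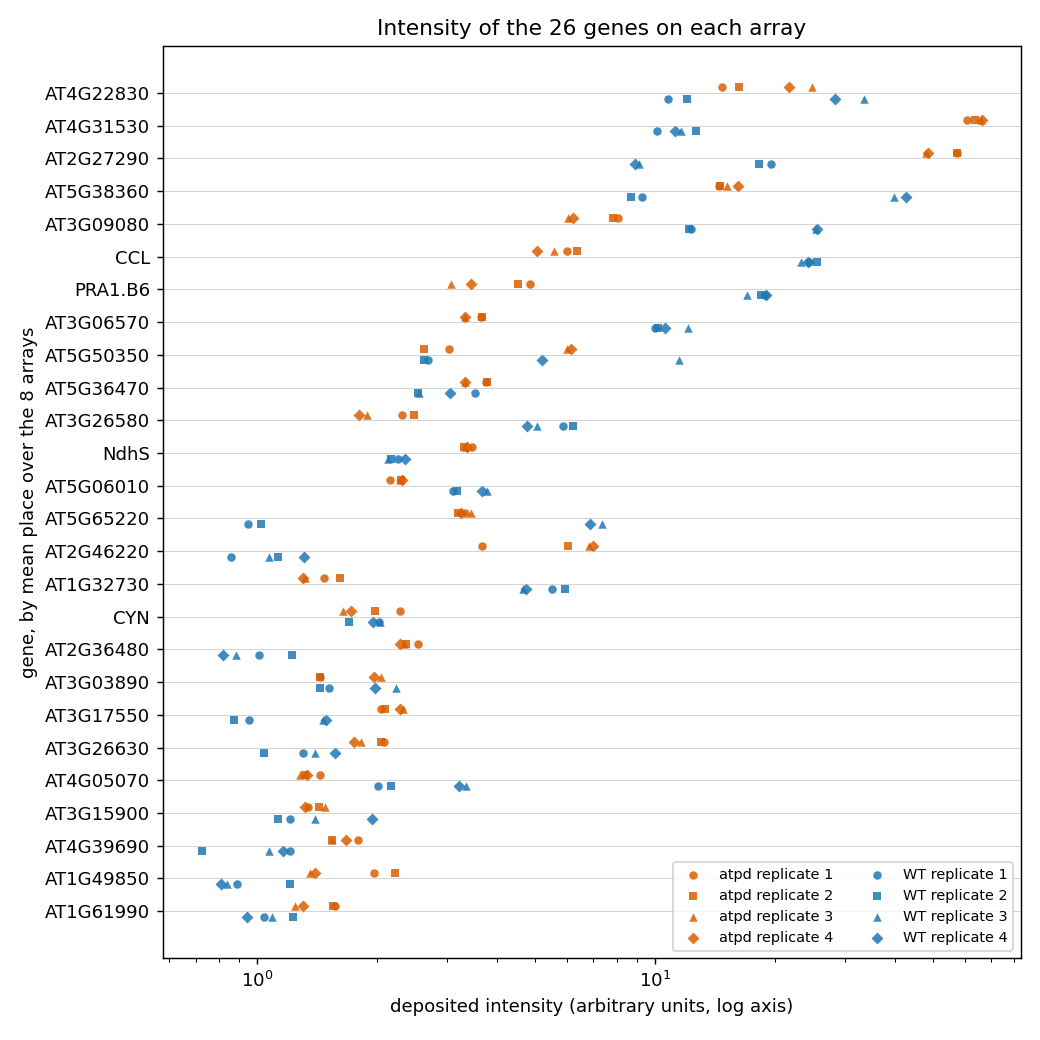
Deposited intensity of each of the 26 genes (arbitrary units, log axis) on the 4 *atpd* arrays (orange, upper row of each gene) and the 4 WT arrays (blue, lower row), with a symbol for each replicate number. AT4G31530 lies at 60.8 to 66.2 in *atpd* and 10.1 to 12.7 in WT, while the 4 WT values of AT5G65220 and of AT5G38360 fall into 2 separate pairs.

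Before the genes are taken in turn, one property of the arrays touches all of them. Replicates 1 and 2 of a genotype resembled each other, as did replicates 3 and 4. Over the 26 genes the median absolute log2 difference between the arrays of such a pair was 0.0494 and 0.0885 in *atpd* and 0.104 and 0.106 in WT. Between arrays of the same genotype but different pairs it was 0.175 to 0.211 in *atpd* and 0.261 to 0.511 in WT, and between the genotypes 0.656 to 1.27. The labels do not say what separates the pairs, and the p-values below rest on the spread among these 8 arrays alone, part of which may be technical. Across probes the correlation within such a pair was estimated at 0.688. The main fit takes the 4 arrays of a genotype as independent, so its SE and p-values can be too small. Differences are therefore also given for replicates 1 and 2 alone and replicates 3 and 4 alone where they disagree.

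Differences between genotypes were tested with limma on quantile-normalised log2 intensities over all 2921 probes with enough values, with Benjamini-Hochberg adjustment over all of them and a threshold of 0.05. Of the 26 genes, 6 were higher and 9 were lower in *atpd*, and 11 did not pass. That is 57.7% of the genes, against 51.8% of all tested probes (21.4% higher and 30.4% lower), shares that lie close together under this scaling. They lay further apart with a common median, where 76.9% of the genes and 51.6% of all probes were called, and in the fit that took array pairs for a random block, where 42.3% of the genes and 31.6% of all probes were called. The median log2 difference was 0.057 for the 26 genes and -0.09 for all tested probes. For the 170 other probes that were bright on all 8 arrays, named for several genes or none or left out by name, it was -0.38, with 22 higher and 78 lower.

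The same 15 genes are those whose 4 *atpd* ranks among all probes did not overlap their 4 WT ranks. Of all probes, 46.0% had ranks that did not overlap. Quantile normalisation works on ranks, so this is another view of the same values and not a second test. On the deposited scale the intensities of 18 of the 26 genes did not overlap, 10 of them higher and 8 lower in *atpd*, against 60.9% of all probes.

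NdhS was the only named gene of photosynthetic electron transport among the 26. It binds ferredoxin at the NADH dehydrogenase-like complex, which passes electrons from ferredoxin back to the plastoquinone pool around photosystem I. Its intensity was 3.46, 3.31, 3.33 and 3.36 on the *atpd* arrays, against 2.26, 2.17, 2.13 and 2.35 on the WT arrays. The groups did not overlap, and within each genotype the 4 arrays lay close together, at 3.36 ± 0.0679 in *atpd* and 2.22 ± 0.0968 in WT (mean ± SD, n = 4 each). As deposited the log2 difference of NdhS was 0.6, below the median of 1.0 of all tested probes on that scale. After quantile normalisation NdhS was higher by 0.51 on the log2 scale (SE 0.12, limma adjusted p = 0.00723), but with a common median of the arrays it was lower (-0.57, adjusted p = 0.00709). With array pairs as a random block its adjusted p was 0.0626, in a range of 0.000232 to 0.0626 over all alternatives. Among the 26 genes NdhS held places 10 to 11 in *atpd* and 14 to 17 in WT, counted from the brightest.

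CCL fell. It is a gene named for its resemblance to CCR, a clock-controlled RNA-binding protein, and its transcript is known for a short life under control of the circadian clock. Its intensity was 6.0, 6.36, 5.58 and 5.06 in *atpd*, against 24.4, 25.6, 23.3 and 24.3 in WT. All *atpd* arrays lay far below all WT arrays. The log2 difference was -1.81 (SE 0.19, limma adjusted p = 0.000109), and it was -1.20 after cyclic loess, -2.09 as deposited and -3.26 with a common median, past the threshold in all 4 scalings. CCL was the brightest of the 26 genes on WT replicates 1 and 2 and held the fourth place on WT replicates 3 and 4, against places 6 to 8 in *atpd*.

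PRA1.B6 fell as well. Prenylated RAB acceptors are small membrane proteins of the secretory pathway that bind the Rab proteins of vesicle traffic. The *atpd* arrays gave 4.84, 4.53, 3.06 and 3.44, and the WT arrays 18.9, 18.5, 17 and 19.0. The groups lay far apart, and replicates 3 and 4 were the lower ones within *atpd*. The log2 difference was -2.09 (SE 0.20, limma adjusted p = 6.07e-05), between -3.40 and -1.45 in the 4 scalings and past the threshold in each. PRA1.B6 held places 7 to 13 in *atpd* and 2 to 5 in WT.

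CYN encodes the cyanase, which breaks down cyanate with bicarbonate to ammonia and carbon dioxide. It was at 2.28, 1.98, 1.64 and 1.72 in *atpd* and at 2.02, 1.70, 2.03 and 1.95 in WT, so the groups overlapped. The log2 difference was -0.35 (SE 0.17, limma adjusted p = 0.107) and did not pass. It was at 0.074 after cyclic loess. Without *atpd* replicate 1, the highest of the 8 arrays, it was -0.49 (adjusted p = 0.0388, with 0.000703 to 0.907 over all alternatives).

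AT5G65220 stands in the list as a ribosomal protein of the plastid, whose ribosomes translate the genes that the plastid itself encodes. The reference gives this gene no description. The *atpd* arrays were nearly equal at 3.33, 3.20, 3.45 and 3.25, while the WT arrays were at 0.948 and 1.02 for replicates 1 and 2 and at 7.34 and 6.88 for replicates 3 and 4. The *atpd* values thus lay between the WT pairs. The pooled log2 difference was 0.23 (SE 0.55, limma adjusted p = 0.760), and it was 1.31 in replicates 1 and 2 alone and -0.87 in replicates 3 and 4 alone. Of the 5 tested members of that list, 2 were higher, 1 was lower and 2 did not pass.

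Genes with only a locus tag took the first places in *atpd*. AT4G31530 was at 60.8, 63.6, 66.0 and 66.2 there, against 10.1, 12.7, 11.6 and 11.2 in WT, and it was the second brightest of all probes on each *atpd* array and ranked 40 to 46 on the WT arrays. AT2G27290 was at 57.6, 57.3, 48.0 and 48.7 in *atpd*, against 19.6, 18.3, 9.11 and 8.89 in WT. It ranked 3 or 4 of all probes on the *atpd* arrays and 23 to 57 on the WT arrays. Both were well above their WT values on every *atpd* array, and the size of the difference for AT2G27290 depended on the pair.

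The log2 difference of AT2G27290 was 2.42 (SE 0.37, limma adjusted p = 0.000742), 1.82 in replicates 1 and 2 alone and 3.12 in replicates 3 and 4 alone. With a common median it was 0.85 and did not pass (adjusted p = 0.0530, with 0.000135 to 0.0530 over all alternatives). AT4G31530 differed by 3.10 (SE 0.13, limma adjusted p = 2.68e-06), with 1.33 to 3.67 in the 4 scalings, each past the threshold. Its 4 *atpd* arrays share the same rank, so quantile normalisation leaves little of their spread in that p.

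AT2G46220 moved furthest up the order. Its intensity was 3.67, 6.04, 6.81 and 7.0 in *atpd*, against 0.860, 1.13, 1.07 and 1.31 in WT. Every *atpd* array lay above every WT array, with *atpd* replicate 1 the lowest of its genotype. It held places 5 to 9 of 26 in *atpd* and 21 to 26 in WT, where it was the dimmest of the 26 on replicate 1. The log2 difference was 2.27 (SE 0.28, limma adjusted p = 0.000229) and lay between 1.23 and 2.79 in the 4 scalings, past the threshold in each.

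The rises of AT2G36480 and AT3G17550 were smaller. AT2G36480 was at 2.54, 2.36, 2.34 and 2.29 in *atpd*, against 1.01, 1.22, 0.884 and 0.821 in WT, a log2 difference of 0.87 (SE 0.17, limma adjusted p = 0.00298). With a common median it was 0.12 (adjusted p = 0.608, with 0.000134 to 0.608 over all alternatives). AT3G17550 was at 2.04, 2.09, 2.32 and 2.28 in *atpd*, against 0.952, 0.871, 1.46 and 1.49 in WT. Neither gene had overlapping groups. As deposited the log2 difference was 1.29 for AT2G36480 and 0.91 for AT3G17550, against a median of 1.0 of all tested probes. The call of AT3G17550 was less secure than that of AT2G36480. Its log2 difference was 0.51 (SE 0.16, limma adjusted p = 0.0233), turned to -0.26 with a common median (adjusted p = 0.291, the highest over all alternatives, the lowest being 0.00433), and did not pass without WT replicate 1 (0.0575) or 2 (0.0551), without *atpd* replicate 3 (0.0653) or 4 (0.0622) or with the pairs taken as a random block (0.0937).

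Among the genes that fell, AT1G32730 moved furthest down. It was at 1.47, 1.61, 1.32 and 1.30 in *atpd*, against 5.52, 5.92, 4.66 and 4.73 in WT. It held places 21 to 25 in *atpd* and 10 to 12 in WT. AT4G05070 was at 1.44, 1.32, 1.28 and 1.33 in *atpd* and at 2.01, 2.17, 3.34 and 3.22 in WT, with places 23 to 26 and 14 to 16. On the *atpd* arrays both genes lay just above the level needed for the set. Their log2 differences were -2.19 (SE 0.17, limma adjusted p = 2.13e-05) for AT1G32730 and -1.36 (SE 0.16, limma adjusted p = 0.000163) for AT4G05070, and both passed in all 4 scalings.

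AT3G06570 and AT3G26580 fell as well. AT3G06570 was at 3.64, 3.68, 3.32 and 3.32 in *atpd*, against 10, 10.2, 12.1 and 10.6 in WT. AT3G26580 was at 2.31, 2.47, 1.89 and 1.80 in *atpd*, against 5.88, 6.20, 5.04 and 4.76 in WT. In neither gene did the groups overlap. The log2 difference was -1.32 (SE 0.12, limma adjusted p = 4.52e-05) for AT3G06570 and -1.54 (SE 0.20, limma adjusted p = 0.000267) for AT3G26580, past the threshold in all 4 scalings, with -2.79 to -0.90 and -2.54 to -0.78.

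The falls of AT3G09080, AT5G06010 and AT3G15900 depended on the setting. AT3G09080 was at 8.07, 7.82, 6.04 and 6.20 in *atpd*, against 12.3, 12.2, 25.4 and 25.6 in WT, so the WT pairs differed by a ratio of 2.08. Its log2 difference was -0.78 (SE 0.24, limma adjusted p = 0.0241), but -0.18 in replicates 1 and 2 alone and -1.46 in replicates 3 and 4 alone. The call was lost in 9 of 19 alternatives, among them a block for the replicate number (adjusted p = 0.0577), cyclic loess (0.136) and each of *atpd* replicates 3 (0.0687) and 4 (0.0653) and WT replicates 3 (0.0525) and 4 (0.0573) left out. Over all 19 the adjusted p ran from 0.000165 to 0.210.

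AT5G06010 was at 2.16, 2.30, 2.29 and 2.31 in *atpd*, against 3.11, 3.18, 3.77 and 3.68 in WT, with a log2 difference of -0.73 (SE 0.12, limma adjusted p = 0.000926). After cyclic loess it was -0.11 and did not pass (adjusted p = 0.482, with 1.69e-05 to 0.482 over all alternatives). AT3G15900 was at 1.34, 1.43, 1.48 and 1.32 in *atpd* and at 1.21, 1.13, 1.40 and 1.94 in WT. All 4 *atpd* intensities of AT3G15900 lay within the range of the WT arrays. Its log2 difference was -0.56 (SE 0.15, limma adjusted p = 0.0138), and -0.0011 as deposited (adjusted p = 0.996, with 0.000862 to 0.996 over all alternatives). Nor did it pass with the pairs taken as a random block (adjusted p = 0.148) or under cyclic loess (0.279).

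**Figure D2:**
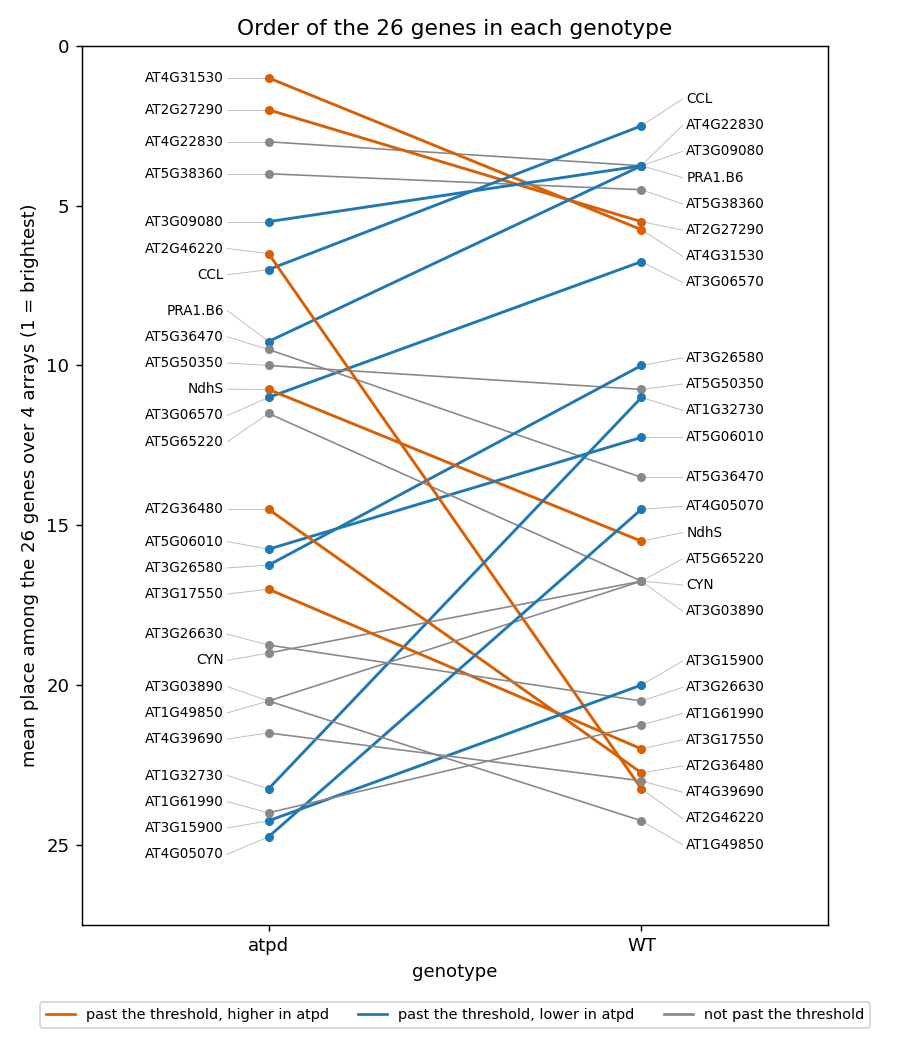
Mean place of each gene among the 26 (1 = brightest) over the 4 *atpd* arrays (left) and the 4 WT arrays (right), with 1 line per gene coloured by the limma result after quantile normalisation. AT2G46220 lies at 6.5 in *atpd* and 23.25 in WT, and AT1G32730 at 23.25 in *atpd* and 11 in WT. NdhS and AT3G17550, drawn as higher in *atpd*, were lower with a common median.

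Several bright genes did not pass and had WT arrays that were far apart. AT5G38360 was at 14.5, 14.6, 15.2 and 16.2 in *atpd*, against 9.26, 8.68, 39.8 and 42.7 in WT. Its WT replicates 3 and 4 were the brightest values of the 26 genes on those arrays, while WT replicates 1 and 2 lay below every *atpd* array. The log2 difference was 1.02 in replicates 1 and 2 alone and -0.76 in replicates 3 and 4 alone, with 0.16 for all arrays (SE 0.49, limma adjusted p = 0.805). AT4G22830 was at 14.7, 16.3, 24.8 and 21.7 in *atpd*, against 10.8, 12, 33.5 and 28.4 in WT. Replicates 3 and 4 were the higher ones in both genotypes. Its log2 difference was 0.71 (SE 0.37, limma adjusted p = 0.139), and with the replicate number as a blocking term it passed (adjusted p = 0.00795, the lowest of 19 alternatives that ran up to 0.970). It also passed at 1.07 after cyclic loess (limma adjusted p = 0.0437), but in the other direction, at -1.15, with a common median (0.0272).

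AT5G50350 was at 3.04, 2.62, 6.0 and 6.14 in *atpd*, against 2.68, 2.63, 11.5 and 5.19 in WT, with replicates 3 and 4 higher in each genotype. The groups overlapped, and the log2 difference was 0.025 (SE 0.49, limma adjusted p = 0.972). The WT values of 4 of the 26 genes, AT5G38360, AT4G22830, AT3G09080 and AT5G65220, were more than 2 times higher on both of replicates 3 and 4 than on either of replicates 1 and 2. In *atpd* no gene of the 26 showed this. AT2G27290 went the other way, at 0.476 of the WT level of replicates 1 and 2 on WT replicates 3 and 4.

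**Figure D3:**
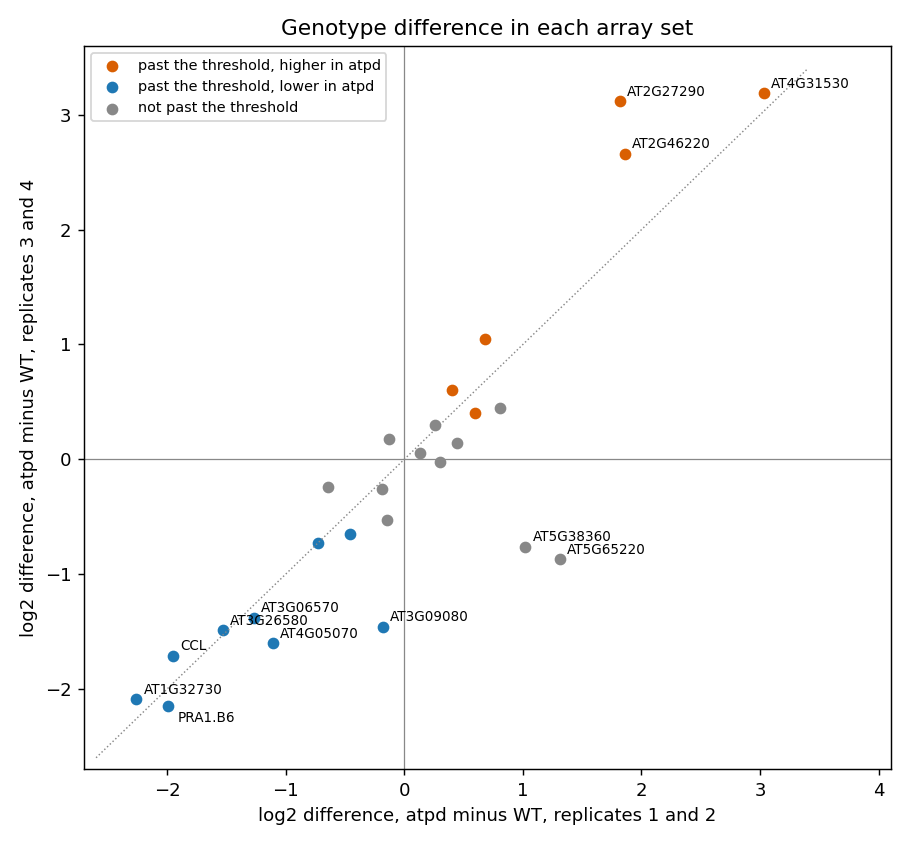
Log2 difference (*atpd* minus WT) of the 26 genes in replicates 1 and 2 alone (x axis) and replicates 3 and 4 alone (y axis), each quantile-normalised on its own, with colours by the limma result for all 8 arrays and a dotted line where both are equal. AT5G38360 (1.02 and -0.76) and AT5G65220 (1.31 and -0.87) lie in the lower right corner, away from the line.

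The remaining genes that did not pass lay further down the order. AT5G36470 was at 3.76, 3.77, 3.33 and 3.32 in *atpd*, against 3.53, 2.54, 2.55 and 3.05 in WT (log2 difference 0.29, SE 0.15, limma adjusted p = 0.126). It passed in opposite directions in 2 scalings, at 0.86 after cyclic loess (limma adjusted p = 0.00269) and -0.87 with a common median (0.00342). AT3G03890 was at 1.44, 1.44, 2.05 and 1.97 in *atpd* and at 1.51, 1.44, 2.23 and 1.98 in WT. In both genes the groups overlapped, and in AT3G03890 each array of a genotype was close to the array of the same number in the other. Its log2 difference was -0.44 (SE 0.21, limma adjusted p = 0.116), and a block for the replicate number gave an adjusted p of 0.0400, in a range of 0.000473 to 0.834 over all alternatives.

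AT3G26630, AT4G39690, AT1G49850 and AT1G61990 had deposited intensities that did not overlap, each higher in *atpd*, yet none passed after quantile normalisation. Their *atpd* means were 1.92, 1.64, 1.74 and 1.42, against WT means of 1.33, 1.04, 0.937 and 1.08. The log2 differences after normalisation were 0.13, 0.089, 0.29 and -0.24, with limma adjusted p of 0.470, 0.676, 0.350 and 0.265. As deposited they were 0.55, 0.68, 0.88 and 0.39, all past the threshold and all below the median of 1.0 of all tested probes on that scale.

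AT1G61990 and AT1G49850 were also the genes nearest to the brightness level inside the set. AT1G61990 reached 1.24 on *atpd* replicate 3, 1.01 times the level there, and AT1G49850 reached 0.809 on WT replicate 4, 1.02 times the level. Just outside, AT2G38550 was at 1.20 and AT1G33250 at 1.17 on *atpd* replicate 3, at 0.969 and 0.950 times the level.

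Over the whole set, the order was partly shared. Of the 325 pairs of genes, 182 (56.0%) stood in the same order on all 8 arrays, and 36 (11.1%) stood in one order on all 4 *atpd* arrays and in the opposite order on all 4 WT arrays. AT2G46220 and AT1G32730 each took part in 9 of the 36, and AT4G05070 in 7. AT3G09080, AT4G22830, AT5G38360 and AT5G65220, whose WT arrays were divided between the pairs, took part in none. A pair of genes counts here only if its order agrees on all 4 WT arrays, so divided WT values make a count less likely. AT2G27290 and AT5G50350, whose WT arrays were also far apart, took part in 1 each. Counts of such pairs over all probes are not given here, so these have no background to be read against. The Spearman correlation of the 26 intensities was 0.486 to 0.692 between *atpd* and WT arrays, 0.917 to 0.984 among *atpd* arrays and 0.822 to 0.992 among WT arrays. Over all probes it was 0.632 to 0.705 between the genotypes, 0.908 to 0.99 among *atpd* arrays and 0.863 to 0.941 among WT arrays. These correlations run across genes or probes that share an array, and are given as a description.

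The upper end of the order was the more stable one in *atpd*. AT4G31530, AT2G27290, AT4G22830 and AT5G38360 held places 1 to 4 in that sequence on every *atpd* array. In WT the first place went to CCL on replicates 1 and 2 and to AT5G38360 on replicates 3 and 4, and the WT ranges of the brightest genes crossed each other. AT4G31530 and CCL were the brightest genes whose places did not overlap between the genotypes.

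**Figure D4:**
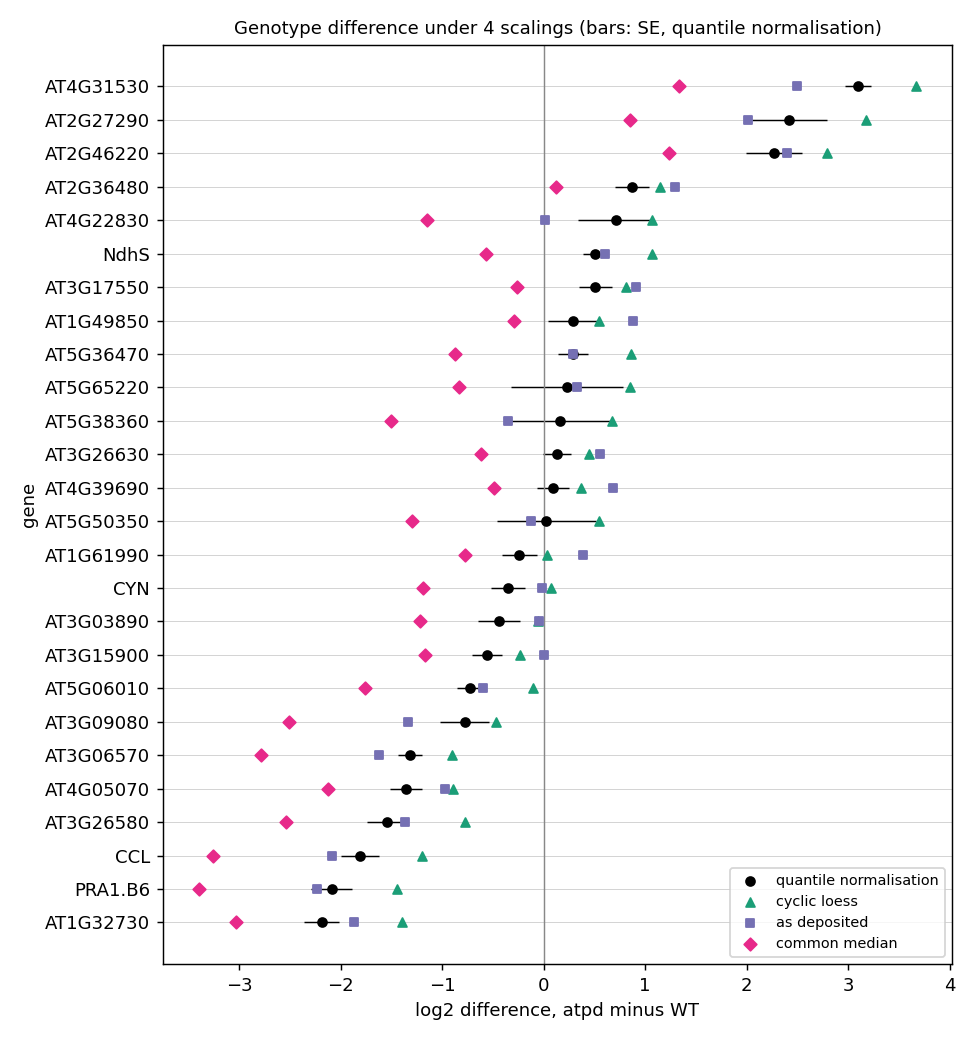
Log2 difference (*atpd* minus WT) of each gene after quantile normalisation (black, bars are the SE), cyclic loess (green), as deposited (purple) and with arrays shifted to a common median (pink). The common median lies lowest for every gene, and 12 genes, among them NdhS and AT3G17550, change sign between scalings.

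How the arrays are put on one scale decided the direction of many of these differences. The 26 genes had a median log2 difference of 0.057 after quantile normalisation, where all tested probes were at -0.09. It was 0.41 after cyclic loess (all probes 0.03), 0.0082 for the deposited intensities (all probes 1.0) and -1.16 when the array medians were made equal (all probes -0.17). Relative to all probes the set thus lay slightly above under the first pair of scalings and about 1 log2 unit below under the other pair. The direction was the same in all 4 scalings for 14 genes. These were AT4G31530, AT2G27290, AT2G46220 and AT2G36480, higher in *atpd*, the 9 genes that fell, and AT3G03890, which did not pass. Of the 15 calls, 8 passed in all 4 scalings: AT4G31530 and AT2G46220 among the rises, and CCL, PRA1.B6, AT3G06570, AT3G26580, AT1G32730 and AT4G05070 among the falls. The matching shares of all tested probes are not given here, so these counts have no background to be read against. With a common median 81.2% of the 170 other bright probes were lower, so a fall passed there more readily than a rise.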

How the data were processed

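Total RNA was measured on 8 arrays, 4 of the *atpd* mutant and 4 of WT, grouped by the sample titles. The deposited values are intensities on a linear scale from 0 to near 100. How the authors made them is not given in the sources used here, so background correction and scaling are unknown, and 395 to 430 probes per array are at 0. The arrays have no depth and their number limits the precision.

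The genes were taken by intensity in the top 15% of all probes on each array. Names came from the platform annotation, 690 of 692 single-gene probes matched the reference gene table (TAIR10.1), and its coordinates were not used. Values at 0 were treated as missing, log2 values were quantile-normalised, and probes with at least 3 values per genotype (2921) were fitted with limma 3.58.1 (R 4.3.3), two-sided, *atpd* minus WT. The fit was tested on simulated data. The members, lists and tests were chosen with earlier results of these data known. The naming rule took the 10 highest mean ranks, the 8 largest moves in mean place each way, the 2 genes nearest the brightness level on either side and list members, and the others are given so that every gene is accounted for.

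*atpd* and WT arrays of the same number deviated together from their genotype means (correlations 0.276 to 0.362 across probes, all over 0.1), so the number was treated as pairing the samples in an alternative. Arrays of different number within replicates 1 and 2 or within 3 and 4 correlated nearly as much (0.168 to 0.274), and across these sets at -0.311 to -0.224, so the shared deviation goes largely with the set. Alternatives were 3 other scalings, a percentile scale, a pseudocount of 0.1, 2 filters, the replicate number as a block, array pairs as a random block, each array left out and each pair set alone. Protein and promoter features were not analysed here.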

Additional observations from a re-analysis of the deposited data

Results flagged for a closer look

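After quantile normalisation of all 8 arrays, in 2 genes every *atpd* array of replicates 1 and 2 lay above its WT counterparts and every *atpd* array of replicates 3 and 4 lay below them. With each set normalised on its own, AT5G38360 was at 1.02 in replicates 1 and 2 and at -0.76 in replicates 3 and 4 (log2 *atpd* minus WT). AT5G65220 was at 1.31 and -0.87 in the same sets. On the deposited intensities 3 genes turned in this way, AT4G22830 being the third. Its differences with each set normalised on its own were 0.81 and 0.45. The difference between the sets was not tested as an interaction, and the sets are pairs of replicate numbers, not groups of the study. The *atpd* arrays of both genes lay close together, and the WT arrays of the sets lay far apart.

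The 52 groups of 4 arrays (26 genes in 2 genotypes) were screened for a lone array that stood apart from its genotype, and 3 held one, against 2.6 that chance gives at about 1 in 20 groups. The gap was judged on normalised log2 values. AT4G31530 was at 12.7 on WT replicate 2 and at 10.1 to 11.6 on the remaining WT arrays. AT2G27290 was at 48.7 on *atpd* replicate 4, with the others at 48.0 to 57.6. After quantile normalisation it was at 6.12 there and at 5.94 on the others (log2). This gap is that between ranks 3 and 4 of all probes, and as deposited the value lay within the range of the others. AT5G65220 was at 3.45 on *atpd* replicate 3, with the others at 3.20 to 3.33.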

How the results depend on the processing

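Of 494 values of the 26 differences under 19 alternatives, 425 kept direction and side of the threshold, and 30 reversed. Without a change of sign, a call was lost in 21 and gained in 18. Among the 30 reversed, 1 lost its call, 1 passed in the other direction and 8 passed that had not been called. The counts moved with the scaling. As deposited 10 genes (38.5%) were higher and 8 (30.8%) lower, against 62.6% and 8.9% of all probes. After cyclic loess 9 (34.6%) were higher and 6 (23.1%) lower, against 22.6% and 24.7% of all probes. With a common median 2 (7.69%) were higher and 18 (69.2%) lower, against 18.7% and 32.9% of all probes and 81.2% lower among the 170 other bright probes. The set itself held 16 genes with the top 10% on each array. With array pairs as a random block 4 genes were higher and 7 lower, against 11.5% and 20.1% of all probes, and NdhS, AT3G17550, AT3G09080 and AT3G15900 lost their calls. With the replicate block 7 genes were higher and 9 lower, against 23.3% and 33.4% of all probes. The replicate block ended the call of AT3G09080 and added AT4G22830 (0.71, adjusted p = 0.00795) and AT3G03890, and it changed no other call. Leaving out each array gave 5 to 6 higher (19.2% to 23.1%) and 8 to 10 lower (30.8% to 38.5%). Of all tested probes 17.8% to 21.1% were higher and 26.8% to 30.9% lower in these fits.

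With a common median the sign turned for AT4G22830 (-1.15), AT5G38360 (-1.51), AT5G50350 (-1.30), AT5G36470 (-0.87), NdhS (-0.57), AT5G65220 (-0.84), AT3G17550 (-0.26), AT3G26630 (-0.62), AT4G39690 (-0.49) and AT1G49850 (-0.29). As deposited it turned for AT5G38360 (-0.35), AT5G50350 (-0.13) and AT1G61990 (0.39), after cyclic loess for CYN (0.074) and AT1G61990 (0.03), and on the percentile scale for AT5G38360 (-0.00063) and AT5G50350 (-0.014). Leaving out an array turned AT5G38360 (-0.14 to 0.52), AT5G50350 (-0.22 to 0.34), AT5G65220 (-0.17 to 0.58) and AT4G39690 (-0.016 to 0.18). In replicates 3 and 4 alone AT5G38360 (-0.76), AT5G65220 (-0.87) and AT3G26630 (-0.025) turned, and in replicates 1 and 2 alone AT5G50350 (-0.13). These pair settings were added with the data in view. The cause of these turns was not tested.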
